A study of Mus musculus with 75 samples.

Results

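The 9 genes of fat cells and of fat synthesis, 9 of the 13856 genes in the expression table, were followed through the gastrocnemius, a calf muscle, of tumour-bearing and tumour-free mice. They were picked by symbol: Adipoq, Fabp4, Plin1, Cidec, Cfd, Scd1, Fasn, Acaca and Car3, and all 9 were in the table. The BALB/c mice of both sexes had received C26 cells, a mouse colon carcinoma line, injected on both sides, or phosphate-buffered saline (PBS). From day 12 they received saline or, in mice with C26 cells, 5-fluorouracil, paclitaxel or cisplatin at 75% of the maximum tolerated dose, over 2 cycles with 2 injections a week, and muscle was taken at day 25. PBS mice without tumours and C26 mice without a drug both received saline as the vehicle, so every drug group carried the tumour as well, and no group received a drug without it. The C26 tumour is a single transplanted line, and the drug groups hold 1 dose schedule each. The 73 libraries used were from 7 PBS, 7 C26 saline, 8 5-fluorouracil, 7 paclitaxel and 6 cisplatin females and from 8, 8, 8, 6 and 8 males in the same order.

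Fat cells store triglyceride in a large droplet and secrete hormones, and small numbers of them lie between muscle fibres or come with the muscle when it is dissected. Adipoq encodes adiponectin, a hormone made almost only by fat cells; Plin1 and Cidec encode proteins that coat and enlarge the fat droplet; and Cfd encodes adipsin, a complement protease that fat cells secrete. Acaca, Fasn and Scd1 encode consecutive enzymes of fat synthesis, which make malonyl-CoA, join it into palmitate and desaturate the product, and many tissues besides fat can make them under the transcription factors SREBP-1c and ChREBP. Fabp4, a fatty acid carrier, is made by fat cells, capillary endothelium and macrophages, and Car3, carbonic anhydrase III, is abundant in both fat and slow muscle fibres. A level below is the deposited log2 expression value, which is comparable for 1 gene between libraries but is not scaled to gene length, so levels of different genes are not ranked. A change is a difference of mean levels on the log2 scale, ± its standard error (SE), from limma fitted to all 73 libraries, and a gene was called where its p, adjusted by Benjamini-Hochberg over 13856 genes, was under 0.05.

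Of the 9 genes, 6 matched a RefSeq promoter on build GRCm38.p6 (250 bases before the start of the gene and 50 after). Scd1, Fabp4 and Car3 did not. The promoters of Adipoq, Plin1 and Cidec are shown because these genes varied together from library to library, and that of Fasn because it was called for the tumour and for cisplatin in females; capitals mark matches to CCAAT on either strand.
Adipoq, chr16:23146286-23146585, plus strand: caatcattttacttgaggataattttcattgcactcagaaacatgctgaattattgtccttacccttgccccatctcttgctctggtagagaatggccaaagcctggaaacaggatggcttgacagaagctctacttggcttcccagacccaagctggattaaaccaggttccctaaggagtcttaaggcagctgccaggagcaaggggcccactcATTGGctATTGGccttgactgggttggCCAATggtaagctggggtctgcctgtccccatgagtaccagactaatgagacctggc
Plin1, chr7:79732727-79733026, minus strand: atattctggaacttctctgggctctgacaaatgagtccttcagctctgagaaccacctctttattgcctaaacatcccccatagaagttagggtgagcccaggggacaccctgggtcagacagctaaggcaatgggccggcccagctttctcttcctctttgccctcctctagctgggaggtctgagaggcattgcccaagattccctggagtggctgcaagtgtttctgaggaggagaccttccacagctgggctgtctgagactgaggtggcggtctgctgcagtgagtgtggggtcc
Cidec, chr6:113435711-113436010, minus strand, the first of 2 listed: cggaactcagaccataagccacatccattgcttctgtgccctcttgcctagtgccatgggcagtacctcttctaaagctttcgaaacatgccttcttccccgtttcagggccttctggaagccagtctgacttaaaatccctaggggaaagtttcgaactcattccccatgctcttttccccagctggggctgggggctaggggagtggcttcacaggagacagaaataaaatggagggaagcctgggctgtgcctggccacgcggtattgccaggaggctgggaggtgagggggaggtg
Fasn, chr11:120824498-120824797, minus strand: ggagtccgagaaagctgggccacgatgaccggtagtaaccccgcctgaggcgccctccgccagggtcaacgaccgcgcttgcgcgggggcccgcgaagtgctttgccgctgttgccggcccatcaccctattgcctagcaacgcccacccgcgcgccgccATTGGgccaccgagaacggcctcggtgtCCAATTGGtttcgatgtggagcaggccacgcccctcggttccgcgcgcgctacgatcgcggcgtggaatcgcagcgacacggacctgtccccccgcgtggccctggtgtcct
Both strands were searched for 6 motifs. CCAAT matched 3 times in the Adipoq window and 3 times in the Fasn window, where 2 of the matches overlap by 2 bases, and it occurs in 37.4% of all 32851 RefSeq promoter windows of this length. None of the 6 motifs matched in the windows of Plin1, Cidec, Cfd or Acaca. The other motifs were GGGCGG (in 35.7% of all windows), CACGTG (in 7.15%), AGGTCA (in 16.3%), TATAAA (in 13.6%) and TCACNCCAC (in 1.24%).

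Read back from the lowest value of each library, depth was 11.4 to 40.5 M estimated counts (median 22.5 M). Markers of muscle fibres were present in every library, with levels from 14.1 to 16.2 for Myh4, the fastest myosin heavy chain, and from 14.2 to 16.2 for Ckm, creatine kinase. All 6 fat cell markers (Adipoq, Plin1, Cidec, Lep, Retn and Trarg1) were in the table, with Retn from -2.46 to 3.52 and Trarg1 from 0.10 to 2.70. Ucp1, the brown fat uncoupling protein, was not found by symbol among the genes of the table. In 19 libraries expression followed the GC content of transcripts with a slope over 0.1 (log2 units per SD of GC content, at equal transcript length), and these held a median of 2.58% mitochondrially encoded transcripts against 10.5% in the others. The mean slope was 0.26 in male paclitaxel, 0.12 in male 5-fluorouracil and -0.10 in male C26 saline libraries. In whole muscle, fewer cells of a type and less RNA per cell cannot be told apart.

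Genes of fat cells had lower levels in male than in female muscle. In PBS mice Adipoq lay at 2.25, 3.72 and 4.94 (lowest, median and highest level) in 7 females and at 0.45, 2.07 and 3.09 in 8 males. Plin1 lay at 2.26, 4.11 and 5.05 in females and at 0.06, 1.95 and 3.06 in males. The male ranges start lower, and the groups overlap. The differences, males minus females in PBS, were -2.12 ± 0.58 for Plin1, a 4.34-fold lower level (adjusted p = 0.0206, limma), -1.84 ± 0.54 for Cidec (adjusted p = 0.0395) and -1.73 ± 0.51 for Cfd (adjusted p = 0.0397). Adipoq itself, at -1.73 ± 0.53, just missed the threshold (adjusted p = 0.0517).

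Of the 3 synthesis enzymes, 2 were lower in males as well. Acaca was lower in males, at -0.71 ± 0.16 (adjusted p = 0.00346) and Fasn at -1.61 ± 0.46 (adjusted p = 0.0289), with all 8 male PBS libraries of Fasn (4.33 to 5.58) below the lowest female one (5.61). Scd1, at -2.01 ± 0.64, was not called (adjusted p = 0.0665). Car3 was lower, at -0.78 ± 0.23 (adjusted p = 0.0362), whereas Fabp4 did not pass, at -0.09 ± 0.19. The 9 slow fibre genes had a median of -0.89 in the same comparison (0 called by limma, 4 at an unadjusted p under 0.05), and their part in the Car3 value was not tested. In all, 6 of the 9 genes were lower in male PBS muscle, against 1.19% of all genes lower, 2.2% higher and 3.39% called in either direction. The count was 2 or 3 when any of female PBS replicates 1, 2, 4 or 6 or male PBS replicates 2, 4, 5 or 7 was left out. Averaged over the 5 arms, a comparison added after the PBS levels had been seen, 8 of 9 were lower in males, against 17.9% of all genes lower and 33.7% called. That mean difference was -2.28 ± 0.29 for Scd1, -2.09 ± 0.26 for Plin1 and -1.69 ± 0.24 for Adipoq, and -0.20 ± 0.09 for Fabp4 (adjusted p = 0.0602). It was -0.54 ± 0.10 for Car3, and 8 of the 9 slow fibre genes were called lower in males over the arms as well, with Myh7, chosen after its values were seen, at -0.97 ± 0.23.

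**Figure D1:**
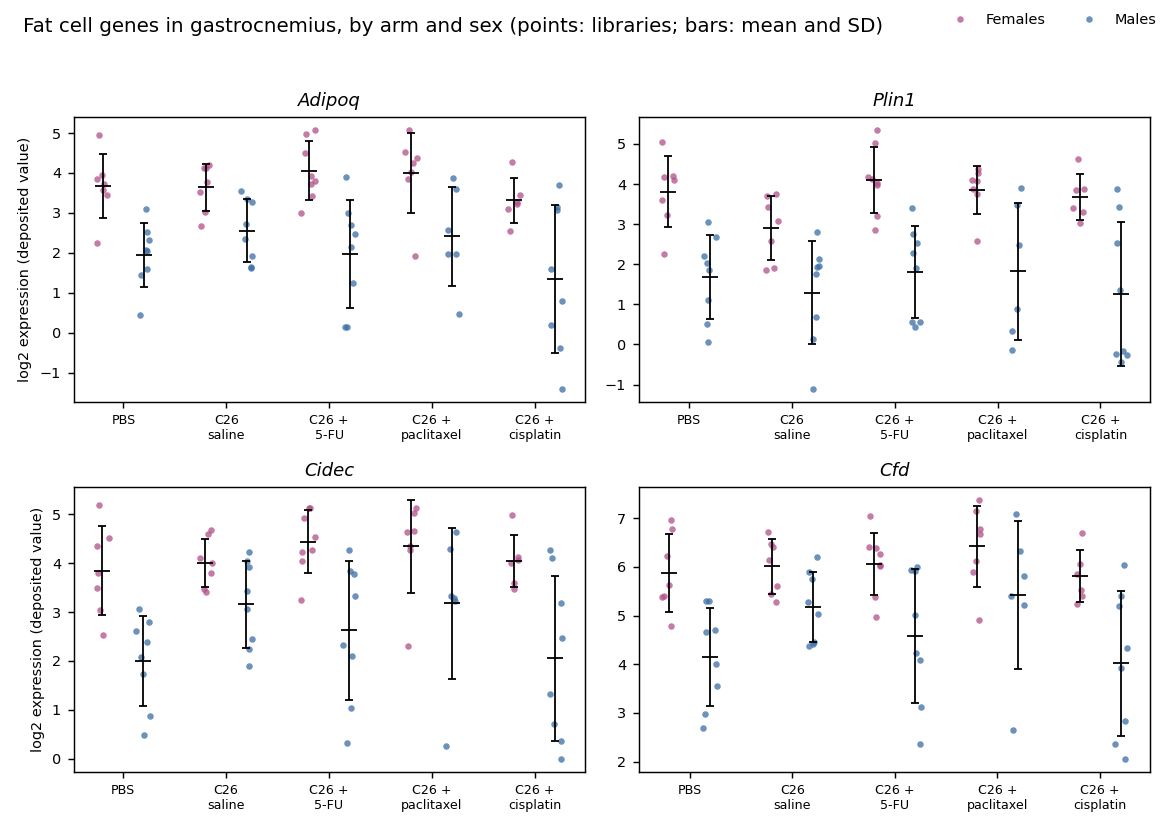
Levels (deposited log2 values, y axis) of Adipoq, Plin1, Cidec and Cfd by arm (x axis) in females and males; each point is 1 library and the black marks are the mean and SD. Male means sit lower than female ones in each arm, and Adipoq in male cisplatin muscle runs from -1.40 to 3.71.

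Among other genes of these pathways the sexes differed in PBS muscle for Retn (resistin, a fat cell hormone in mice), lower in males at -2.08 ± 0.54 and the 1 of 19 other fat cell genes that passed. By limma, 13 of the 19 had an unadjusted p under 0.05, as had 1861 of all 13856 genes. Averaged over the 5 arms, 17 of the 19 had lower values in males. There 13 were called in either direction, against 33.7% of all genes. In PBS muscle 1.19% of all genes were lower in males and 2.2% were higher. Of 18 measured genes of fatty acid synthesis, Acaca and Fasn included, 4 were lower in male PBS muscle and 1 was higher. Of these, Acly, ATP citrate lyase, was at -0.89 ± 0.20, Slc25a1, the mitochondrial citrate carrier, at -1.18 ± 0.32, and Me1, malic enzyme, was at 0.64 ± 0.13. These 4 genes were named after their values had been seen.

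When each group's mean was removed, the fat cell genes varied together from library to library. Across 73 libraries the deviations of Cidec, Plin1 and Cfd followed those of Adipoq with Pearson's r of 0.907, 0.900 and 0.879 (Spearman's rho 0.926, 0.924 and 0.915), positive in all 10 groups. Each had a permutation p of 1e-05, the smallest that 100000 two-sided resamples within groups can give, and 2e-05 after adjustment over the 16 relations computed. Over the whole table Cidec, Plin1 and Cfd stood 1st, 2nd and 4th by r with Adipoq, and the 6 genes most like it were Cidec, Plin1, Retn, Cfd, the glutamine transporter Slc1a5 and cysteine dioxygenase Cdo1. The values of a library share its mouse, its piece of muscle and its depth.

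The synthesis enzymes followed Adipoq less closely or hardly at all. Scd1 had r = 0.676 (rho 0.635, permutation p = 1e-05) and Fasn r = 0.659 (rho 0.699, permutation p = 1e-05), and both were positive in 10 of 10 groups. Without the 2 libraries farthest from the median Adipoq deviation, r was 0.640 for Scd1 and 0.659 for Fasn, or 0.664 for Fasn with group means taken again. Scd1 and Fasn followed each other with r = 0.762. Among genes with a mean log2 level of at least 0 that are not predicted models, a filter that also held for the genes named beside Adipoq and Car3, the 6 most like Scd1 were Rbp4, Fasn, Pygl, Postn, Matn2 and Plin1, with r from 0.733 to 0.765. Without the filter Fasn stood 5th and Plin1 9th. Acaca (r = 0.207, rho 0.203, permutation p = 0.0955), Fabp4 (r = 0.126, rho 0.0935, permutation p = 0.319) and Car3 (r = -0.115, rho -0.0969, permutation p = 0.347) had no relation with Adipoq that passed over both sexes. Taken by sex, a split that was not tested, Fabp4 had r = 0.537 with Adipoq in females and -0.121 in males. Its values in single groups ran from -0.642 to 0.827. Acaca had 0.319 in females and 0.155 in males, and Car3 had 0.126 and -0.219. In limma slopes on Adipoq, 5 of the 8 other genes passed (Cidec, Plin1, Cfd, Scd1 and Fasn), against 10.7% of all genes. With Scd1, relations passed for Acaca (r = 0.364, adjusted permutation p = 0.0034) and Fabp4 (r = 0.296, adjusted permutation p = 0.03). That of Car3 with Scd1 did not pass (r = 0.183). In limma slopes on Scd1, 40.9% of all genes passed. Acaca and Fasn followed each other with r = 0.540, a relation that was not tested.

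**Figure D2:**
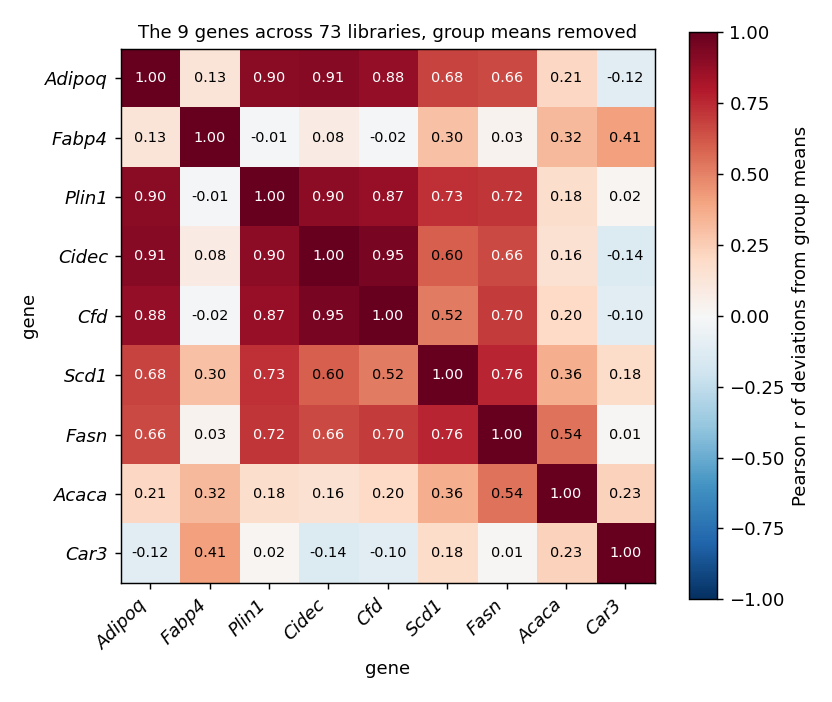
Pearson's r between the 9 genes over 73 libraries after group means were removed; both axes list the genes and colour gives r. Adipoq, Plin1, Cidec and Cfd form a block of values from 0.87 to 0.95, Scd1 and Fasn join it less closely, and Acaca, Fabp4 and Car3 stand outside it. Acaca has r = 0.54 with Fasn and 0.36 with Scd1, and Fabp4 has 0.41 with Car3.

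With the tumour alone, 1 synthesis enzyme was called in each sex, at a lower level than in PBS. None of Adipoq, Plin1, Cidec and Cfd was called. In females Adipoq lay at 2.68, 3.77 and 4.20 in 7 C26 saline libraries, within the PBS range, a change of -0.04 ± 0.55. Cidec (0.16 ± 0.56), Cfd (0.13 ± 0.53) and Plin1 (-0.91 ± 0.59) did not pass either. Fasn lay at 5.61, 6.11 and 8.28 in female PBS and at 3.88, 5.10 and 6.09 in C26 saline muscle, where 5 of 7 libraries lay below every PBS library. It fell by 1.45 ± 0.47 on the log2 scale, 2.72-fold (adjusted p = 0.0472, limma). It was the 1 called gene of the 9 in females, where 2.56% of all genes fell and 6.7% were called.

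That Fasn call stood close to the threshold: the adjusted p was 0.0555 in a fit of the 2 groups alone. It was lost when any of female PBS replicates 1, 2, 3 or 6 or C26 saline replicates 1, 3, 4 or 6 was left out, with values from -1.62 to -1.15 and adjusted p up to 0.155. Scd1 lay at 5.59, 7.55 and 7.97 in PBS and at 4.10, 5.65 and 6.80 in C26 saline and was not called (-1.81 ± 0.66, adjusted p = 0.088). Acaca was at -0.34 ± 0.17 (adjusted p = 0.245).

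Scd1, whose change in females was of similar size but not called, was the enzyme called in males. It lay at 4.22, 5.37 and 6.26 in 8 PBS libraries and at 1.29, 3.53 and 6.01 in 8 C26 saline libraries. Of the 8 tumour libraries 7 lay below every PBS library, and 1 lay near the top of the PBS range. Scd1 fell by 1.72 ± 0.62, 3.29-fold (adjusted p = 0.0312), again as 1 of 9 genes, against 13% of all genes that fell and 26.1% called. The call was lost without male C26 saline replicate 2, 3 or 6 or PBS replicate 7 or 8 (values from -2.07 to -1.39, adjusted p up to 0.101). Fasn was at -0.56 ± 0.44 and Acaca at 0.24 ± 0.16, neither called. Fat cell genes had positive values that missed the threshold: 0.61 ± 0.51 for Adipoq, 1.16 ± 0.52 for Cidec (adjusted p = 0.0966) and 1.03 ± 0.49 for Cfd (adjusted p = 0.119), while Plin1 was at -0.40 ± 0.56. The sex difference in the tumour's effect was tested for each of the 9 genes and passed for none (0.0361% of all genes passed), and 1, Acaca, had an unadjusted p under 0.05.

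**Figure D3:**
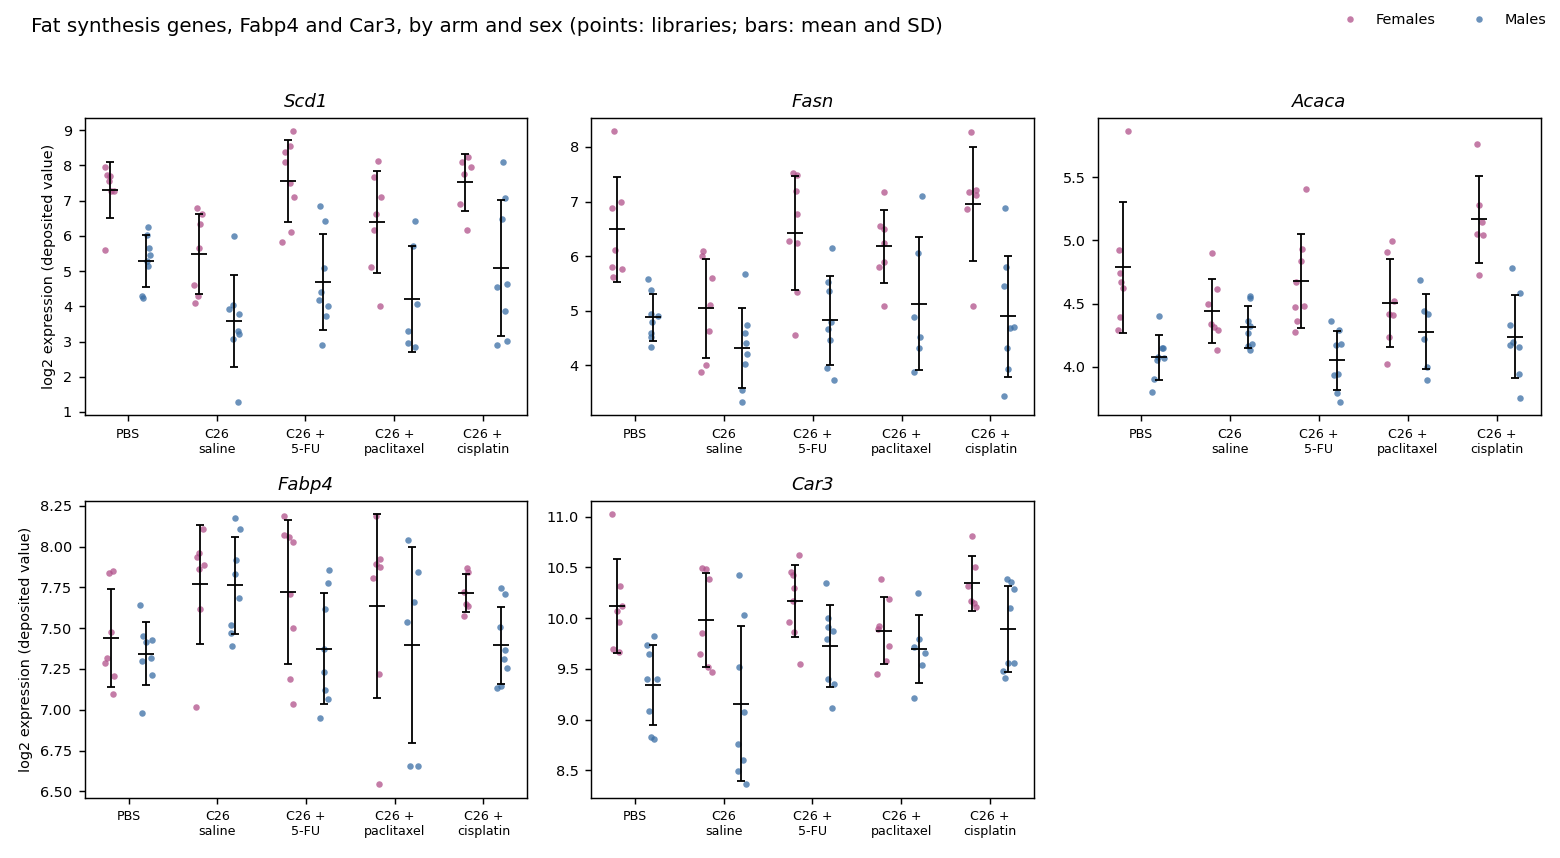
Levels (deposited log2 values, y axis) of Scd1, Fasn, Acaca, Fabp4 and Car3 by arm (x axis) in females and males; each point is 1 library and the black marks are the mean and SD. Scd1 dips in C26 saline muscle of both sexes, to medians of 5.65 in females and 3.53 in males.

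To separate how much fat cell RNA a sample held from how much synthesis RNA went with it, Scd1 was first set against Adipoq in the same library. The Scd1 level minus the Adipoq level was 2.78, 3.61 and 4.13 in female PBS and 1.07, 1.53 and 2.67 in female C26 saline muscle. All 7 female tumour libraries lay below every PBS library. In males this difference was 2.19, 3.34 and 4.21 in PBS and -0.36, 1.01 and 2.67 in C26 saline. The size of such a difference depends on the length of the transcripts and has no meaning of its own, and only its shift between groups is read.

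With the Adipoq level as a covariate in the fit across all genes, the fall of Scd1 in tumour muscle was called in both sexes. The change was -1.78 ± 0.49 in females (adjusted p = 0.0143) and -2.22 ± 0.47 in males (adjusted p = 0.000161). Both calls held when each library was left out in turn, with adjusted p up to 0.0452 in females and 0.00111 in males. Fasn was at -1.42 ± 0.36 in females (adjusted p = 0.00625), again called without each library in turn. In males it was at -0.91 ± 0.34 (adjusted p = 0.0371), a call lost in 9 of 16 such fits (without PBS replicate 4, 5 or 8 or C26 saline replicate 1, 2, 3, 5, 6 or 7, adjusted p up to 0.0788). Plin1, the droplet coat, also fell relative to Adipoq, by 0.87 ± 0.26 in females (adjusted p = 0.0278) and by 1.00 ± 0.25 in males (adjusted p = 0.00146). The Plin1 call in males held without each library in turn and that in females was lost in 6 of 14 (without PBS replicate 1 or 7 or C26 saline replicate 1, 3, 5 or 6, adjusted p up to 0.0802). In males Cidec was at 0.59 ± 0.23 (adjusted p = 0.0454), a call lost in 8 of 16 fits (without PBS replicate 1, 4 or 7 or C26 saline replicate 1, 5, 6, 7 or 8, adjusted p up to 0.162). With this covariate 3 of the 8 remaining genes were called in females, where 7.26% of all genes were (4.45% higher and 2.81% lower), and 4 of 8 in males, where 26.7% were (13.5% higher and 13.2% lower).

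A second covariate, the mean level of 9 other fat cell genes (Retn, Aoc3, Acvr1c, Slc7a10, Adrb3, Mrap, Adig, Trarg1 and Lep), was used as well. Scd1 fell under it too, by 1.49 ± 0.45 in females (adjusted p = 0.0266) and by 1.56 ± 0.42 in males (adjusted p = 0.00294). Fasn fell in females by 1.23 ± 0.33 (adjusted p = 0.0119) and was not called in males (-0.46 ± 0.31). The covariates parted on the droplet genes. Plin1 was called in neither sex with the 9-gene score (-0.55 ± 0.21 in females and -0.23 ± 0.20 in males). Relative to that score, male tumour muscle held more Adipoq (0.77 ± 0.21, adjusted p = 0.00385), Cidec (1.32 ± 0.22, adjusted p = 3.51e-06) and Cfd (1.18 ± 0.23, adjusted p = 5.41e-05). In the fit without covariates 1 of the 9 genes of the score was called, Lep, leptin, which fell by 2.87 ± 0.84 in males (adjusted p = 0.00681). Lep levels ran from -5.80 to 3.93 over all libraries, where the lowest value of any gene was -6.46. Lep enters the score, and its part in the values relative to the score was not tested. Under the score 2 of 9 genes were called in females and 4 of 9 in males, against 7.04% and 27% of all genes.

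**Figure D4:**
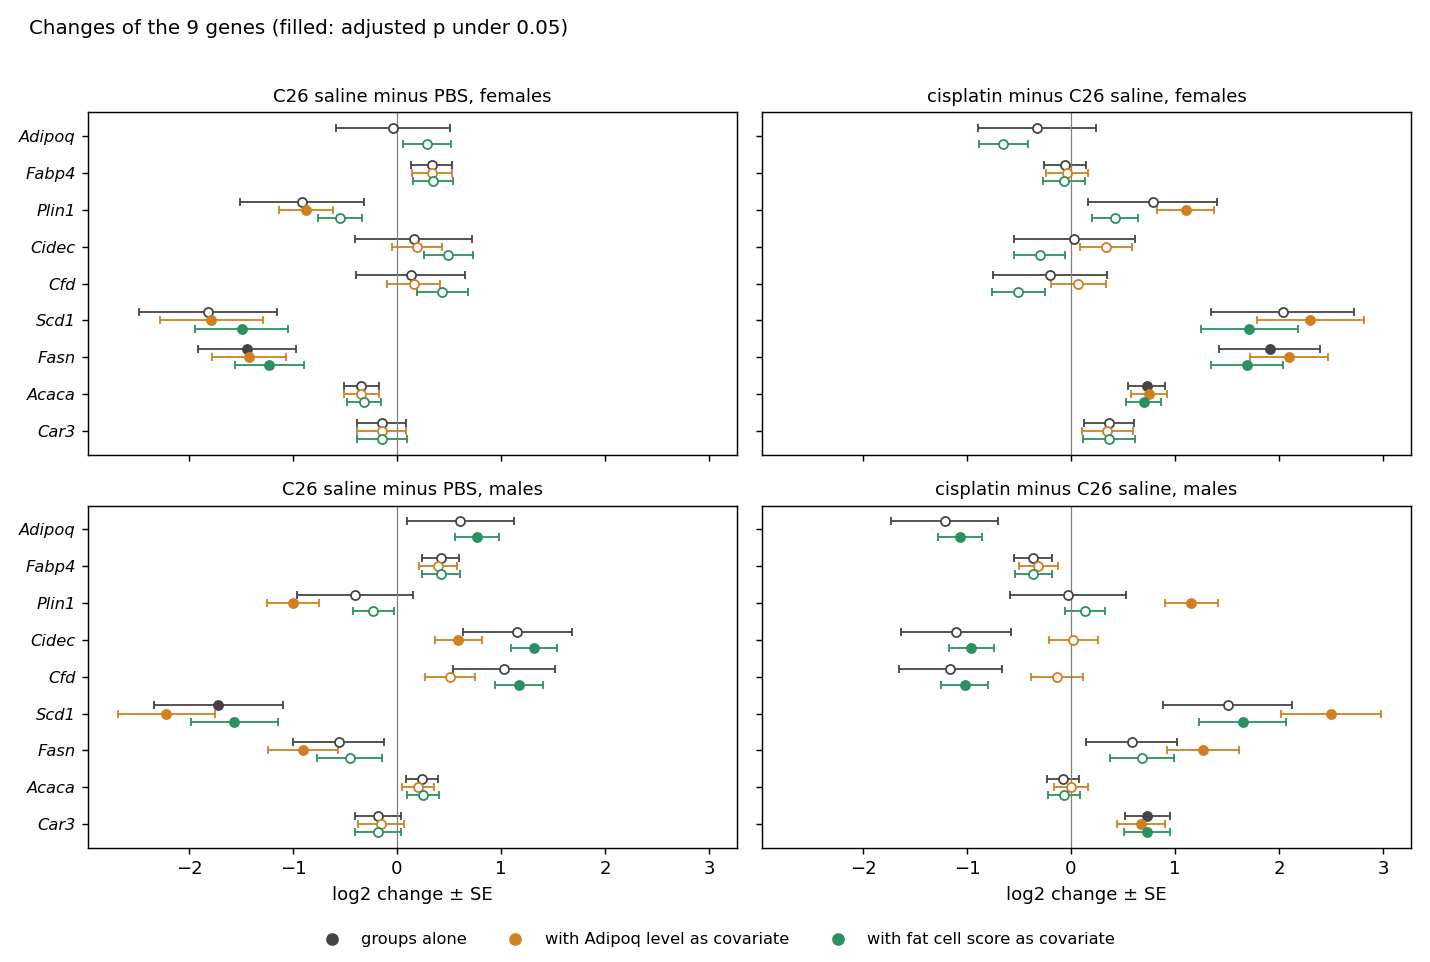
Log2 changes (x axis, ± SE) of the 9 genes (y axis) for C26 saline minus PBS and cisplatin minus C26 saline in each sex, from the groups alone and with either fat cell covariate; filled symbols have an adjusted p under 0.05. Scd1 lies left of 0 for the tumour and right of 0 for cisplatin in both sexes and under each of the 3 fits, and Plin1 with cisplatin in males is at -0.03 without a covariate and at 1.16 with the Adipoq level as one. Both comparisons use the same C26 saline libraries, with opposite signs.

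The sex difference in PBS muscle was refitted with the same covariate. At equal Adipoq the male minus female value was -0.43 ± 0.28 for Plin1, -0.24 ± 0.25 for Cidec, -0.60 ± 0.51 for Scd1 and -0.64 ± 0.37 for Fasn, none called. Acaca (-0.61 ± 0.17, adjusted p = 0.0298) and Car3 (-0.87 ± 0.24, adjusted p = 0.0292) were called, 2 of 8 against 3.41% of all genes. With the 9-gene score Acaca was called (-0.59 ± 0.17, adjusted p = 0.0344) and Car3 was not (-0.78 ± 0.25, adjusted p = 0.0616).

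Other genes around fat synthesis were called under the tumour in both directions, 1 of 14 regulators and 1 of 18 synthesis genes in females and 3 of 14 and 3 of 18 in males, beside 6.7% and 26.1% of all genes. Of 14 measured regulators of lipid synthesis, 1 fell in females, Insig1, which holds SREBP in the endoplasmic reticulum and is itself a target of SREBP (-0.75 ± 0.14, adjusted p = 0.00019). In males 1 rose, Nr1h3, the liver X receptor alpha (0.77 ± 0.17), and 2 fell, Srebf1, which encodes SREBP-1 (-0.74 ± 0.25, adjusted p = 0.0196), and Mlxipl, which encodes ChREBP (-0.51 ± 0.15, adjusted p = 0.00575). The list's median change was -0.02 in females and -0.05 in males, against -0.01 and 0.00 over all genes. Of 18 synthesis genes, Fasn in females and Scd1 and Thrsp in males fell (Thrsp, a lipogenic regulator, -0.79 ± 0.27), and Acacb, the acetyl-CoA carboxylase that governs fat oxidation in muscle, rose in males (0.52 ± 0.17). Their median change was -0.29 in females and -0.12 in males.

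Genes of fat breakdown and droplet turnover were called in 2 of 17 cases in females and 4 of 17 in males, beside 6.7% and 26.1% of all genes. Of 17 measured droplet and lipolysis genes, 2 rose in females, Plin4, a droplet coat (0.93 ± 0.26), and Lipe, hormone-sensitive lipase (0.66 ± 0.20). In males 3 rose, Plin4 (1.51 ± 0.24), Lipe (0.64 ± 0.19) and Pnpla2, adipose triglyceride lipase (0.96 ± 0.24), and Fitm1, a droplet-forming protein of muscle, fell by 0.63 ± 0.20. Of 11 triglyceride synthesis genes Lpin1, a phosphatidate phosphatase, rose in both sexes (0.86 ± 0.17 in females and 1.18 ± 0.16 in males). In males Gpat3 rose by 1.37 ± 0.31 and Gpam, the mitochondrial first step of triglyceride synthesis, fell by 0.89 ± 0.16. Of 17 cholesterol synthesis genes, Sqle and Hmgcs1 fell in females (-1.49 ± 0.42 and -0.44 ± 0.14), and 2 rose and 4 fell in males, led by Dhcr7 (-1.50 ± 0.21).

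Markers of other cells moved with the tumour as well. Of all genes 4.14% rose and 2.56% fell in females, and 13.1% rose and 13% fell in males. Of 10 macrophage genes, 5 rose in females and 7 in males, with median changes of 1.00 and 1.08, among them C1qa, a complement subunit (1.16 ± 0.26 and 1.14 ± 0.24). Of 12 endothelial genes 1 fell in females, the VEGF receptor Kdr (-0.91 ± 0.26), and 3 rose and 2 fell in males (median 0.10). Of 12 stromal genes 2 rose in females and 3 rose and 3 fell in males, with Ly6a at 1.59 ± 0.20 and 1.33 ± 0.19. Their part in the values of the 9 genes was not tested.

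Each drug was set against the C26 saline libraries that also served, with the opposite sign, in the comparison with PBS. A low mean in these libraries lowers the tumour value and raises every drug value. 5-Fluorouracil was compared with saline in mice of the same sex that carried C26 tumours. None of the 9 genes was called in females (1.35% of all genes were) or in males (23.3%), by limma, the 1 tool run; 3 in females (Plin1, Scd1 and Fasn) and 2 in males (Fabp4 and Car3) had an unadjusted p under 0.05. In females Scd1 lay at 5.82, 7.79 and 8.97 in 8 drug libraries against 4.10, 5.65 and 6.80 in C26 saline, and 6 of 8 lay above every saline library (2.08 ± 0.64, adjusted p = 0.0955). Fasn was at 1.38 ± 0.46 (adjusted p = 0.14) and Plin1 at 1.20 ± 0.58. With libraries weighted by quality Scd1 (2.49, adjusted p = 0.000572), Fasn (1.71, adjusted p = 0.00256) and Plin1 (1.42, adjusted p = 0.0463) were called. The share of all genes called with these weights was not computed.

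At equal Adipoq, Scd1 rose with 5-fluorouracil by 1.74 ± 0.48 in females (adjusted p = 0.0356) and by 1.60 ± 0.47 in males (adjusted p = 0.0097). The female call was lost in 9 of 15 fits that left out 1 library (C26 saline replicate 1, 3, 5 or 6 or 5-fluorouracil replicate 2, 3, 4, 5 or 6, adjusted p up to 0.113), and the male call held in all 16. Plin1 rose relative to Adipoq in males by 1.10 ± 0.25 (adjusted p = 0.00106), also in all 16. These made 1 of 8 genes in females and 2 of 8 in males, against 1.86% and 22.2% of all genes. Macrophage genes moved with the drug too: 5 of 10 fell in females (median -0.93) and 3 of 10 in males (median -0.34), and of 12 stromal genes 2 fell in females, and 2 rose and 1 fell in males. Of all genes 1.2% fell in females, and 11.3% rose and 12% fell in males. The part of these markers in the values of Scd1 and Plin1 was not tested. With the 9-gene score Scd1 missed the threshold in both sexes, at 1.48 ± 0.44 (adjusted p = 0.0568) and 1.06 ± 0.42 (adjusted p = 0.0544). Plin1 was not called in males with that score.

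In males the fat cell genes had values of both signs under 5-fluorouracil and none passed, at -0.59 ± 0.51 for Adipoq, -0.53 ± 0.52 for Cidec, -0.59 ± 0.49 for Cfd and 0.52 ± 0.56 for Plin1. The median over the 9 genes of the fat cell score was 0.19. Relative to the 9-gene score Adipoq (-0.66 ± 0.21), Cfd (-0.65 ± 0.23) and Cidec (-0.60 ± 0.22) were called, 3 of 9 against 24.5% of all genes. Without the 19 libraries of high GC slope, Adipoq (-1.63), Cidec (-1.71), Cfd (-1.72) and Car3 (0.85) were called, in a fit for which the share of all genes called was not computed. That fit drops 4 of the 8 male 5-fluorouracil libraries, whose fat cell scores were 0.06 to 1.13, and keeps 4 with scores from -1.54 to -0.22. Of the regulators 3 of 14 rose in males, Mlxipl among them (0.46 ± 0.15), and of the 18 synthesis genes Thrsp rose (0.74 ± 0.27) and Elovl5 fell (-0.50 ± 0.18), where 11.3% of all genes rose and 12% fell.

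With paclitaxel none of the 9 genes was called in females, where no gene of the table was (0% of all genes, with 845 at an unadjusted p under 0.05, 1 of them a gene of the 9, Fasn), or in males, where 31.9% of all genes were and 1 of the 9, Car3, had an unadjusted p under 0.05. Scd1 lay at 4.00, 6.64 and 8.13 in 7 female and at 2.83, 3.69 and 6.41 in 6 male paclitaxel libraries, overlapping the saline libraries, at 0.92 ± 0.66 and 0.64 ± 0.67. At equal Adipoq, Plin1 rose in males by 0.68 ± 0.27 (adjusted p = 0.0437), a call lost in 7 of 14 fits without 1 library (C26 saline replicate 1, 3, 5 or 6 or paclitaxel replicate 1, 4 or 5, adjusted p up to 0.159). It was 1 of 8 genes, against 32.4% of all genes, and none passed in females. In males 5 of 14 regulators rose with this drug, led by Srebf1 (1.06 ± 0.27, adjusted p = 0.00387) and Mlxipl (0.48 ± 0.16), with a median of 0.35, where 13.5% of all genes rose. Male paclitaxel libraries also had the steepest mean GC slope and a median of 2.52% mitochondrial transcripts against 8.22% in male C26 saline. Of the 9 genes 1 was called there with the mitochondrial share as a covariate and 0 with the GC slope. For these covariates the share of all genes called was not computed.

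With cisplatin, 2 of the 3 synthesis enzymes rose in females. Fasn lay at 5.08, 7.15 and 8.27 in 6 cisplatin libraries, 5 of them above every C26 saline library (3.88 to 6.09). It rose by 1.91 ± 0.49, 3.75-fold (adjusted p = 0.0254, limma). Acaca lay at 4.72, 5.10 and 5.76 against 4.14, 4.34 and 4.90, again with 5 of 6 above every saline library, and rose by 0.73 ± 0.17, 1.65-fold (adjusted p = 0.0135). Scd1, at 6.18, 7.85 and 8.23, was at 2.03 ± 0.69 (adjusted p = 0.109) and was called in a fit of the 2 groups alone (adjusted p = 0.0289). Adipoq was at -0.33 ± 0.57 and Cidec at 0.03 ± 0.58, not called. In all, 2 of 9 genes rose, against 0.346% of all genes that rose, 1.31% that fell and 1.66% called.

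The female Acaca call was lost without cisplatin replicate 2 (adjusted p = 0.0579). The Fasn call was lost without C26 saline replicate 1, 3 or 6 or cisplatin replicate 1, 2, 3, 5 or 6, with values from 1.64 to 2.28 and adjusted p up to 0.0744. At equal Adipoq, Scd1 (2.30 ± 0.51, adjusted p = 0.00648), Fasn (2.09 ± 0.37, adjusted p = 0.000535) and Acaca (0.75 ± 0.17, adjusted p = 0.00848) were called, each of them without every library in turn. Plin1 (1.10 ± 0.28, adjusted p = 0.0166) was called as well but lost in 3 of 13 such fits (without C26 saline replicate 6 or cisplatin replicate 1 or 6, adjusted p up to 0.0635), giving 4 of 8 genes against 2.18% of all genes. With the 9-gene score Scd1, Fasn and Acaca were called (1.72, 1.69 and 0.70) and Plin1 was not (0.42), 3 of 9 against 1.94%.

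Other enzymes of the pathway lay in the same direction in females. Of 18 synthesis genes, Fasn and Acaca passed in the fit without covariates, with a median change of 0.27 against 0.00 over all genes. Elovl6, which elongates palmitate, was at 1.76 ± 0.51 (adjusted p = 0.0562), Slc25a1, chosen after its values were seen, at 1.09 ± 0.34 (adjusted p = 0.0815) and Acly at 0.71 ± 0.21 (adjusted p = 0.0673). With the Adipoq level as a covariate 6 of the 18 rose, these 3 with Scd1, Fasn and Acaca: Elovl6 by 1.91 ± 0.44, Slc25a1 by 1.22 ± 0.25 and Acly by 0.76 ± 0.19. Of all genes 0.534% rose with that covariate. None of 14 regulators passed in females with cisplatin by limma, where 5 had an unadjusted p under 0.05. Of 12 endothelial genes Aqp1 (-0.79 ± 0.17) and Esam (-0.67 ± 0.17) fell, beside 1.31% of all genes. Of 10 macrophage genes none passed either, where 6 had an unadjusted p under 0.05 (median -0.66).

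In cisplatin-treated males 1 of the 9 genes was called, Car3. Adipoq lay at -1.40, 1.19 and 3.71 in 8 cisplatin libraries against 1.63, 2.54 and 3.56 in C26 saline. Of the cisplatin libraries 5 lay below every saline library and 3 lay between 3.08 and 3.71, and the change of -1.21 ± 0.51 was not called (adjusted p = 0.0976). It was called without male cisplatin replicate 5, 6 or 8 (values from -1.55 to -0.82 over all such fits, adjusted p from 0.0322 to 0.289). Cidec was at -1.10 ± 0.52 and Cfd at -1.16 ± 0.49. Scd1 lay at 2.89, 4.60 and 8.11 against 1.29, 3.53 and 6.01, at 1.51 ± 0.62 (adjusted p = 0.0862).

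At equal Adipoq, Scd1 rose by 2.50 ± 0.48 in cisplatin males (adjusted p = 0.000127), Fasn by 1.27 ± 0.35 (adjusted p = 0.00722) and Plin1 by 1.16 ± 0.26 (adjusted p = 0.000856), each without every library in turn. Without the covariate Plin1 was at -0.03 ± 0.56. Relative to the 9-gene score Scd1 rose by 1.65 ± 0.42 (adjusted p = 0.00333), and Adipoq (-1.07 ± 0.21), Cfd (-1.02 ± 0.23) and Cidec (-0.96 ± 0.22) were lower. With Car3 these made 4 of 8 and 5 of 9 genes called, against 15.7% and 16.6% of all genes. Fasn and Plin1 were not called relative to the score. At equal Adipoq the Car3 call was lost in 6 of 16 fits (without C26 saline replicate 1, 3, 5 or 6 or cisplatin replicate 2 or 6, adjusted p up to 0.113). In the fit without covariates 2 of 19 other fat cell genes were called. Nrg4, a secreted growth factor, fell by 1.52 ± 0.41 and Thrsp rose by 0.78 ± 0.27. Of 11 triglyceride synthesis genes 1 was called, Gpam, which rose by 0.63 ± 0.16. Of all genes 15.9% were called in that fit, 7.66% higher and 8.23% lower.

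**Figure D5:**
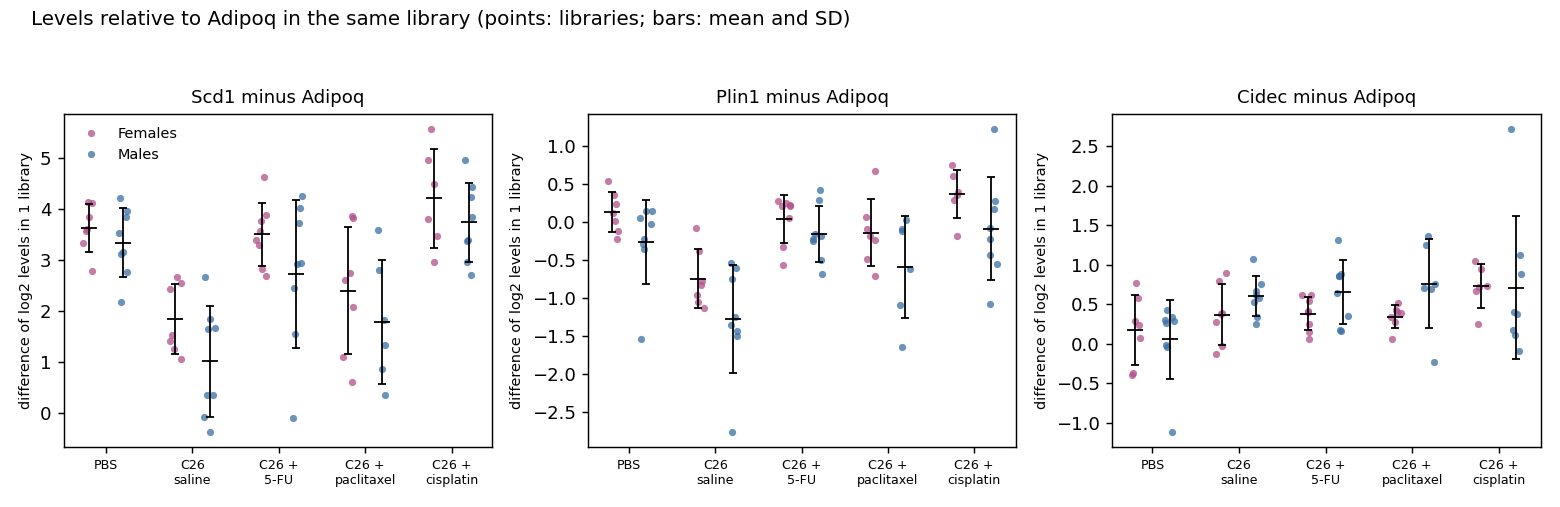
Scd1, Plin1 and Cidec levels minus the Adipoq level of the same library (difference of log2 levels, y axis) by arm (x axis) and sex; each point is 1 library and the black marks are the mean and SD. The Scd1 difference drops from a female median of 3.61 in PBS to 1.53 in C26 saline and stands at 3.49 with 5-fluorouracil, 2.62 with paclitaxel and 4.15 with cisplatin.

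The mean Scd1 minus Adipoq difference in females was 1.85 ± 0.68 (SD, n = 7) in C26 saline, 2.40 ± 1.25 (n = 7) with paclitaxel, 3.51 ± 0.62 (n = 8) with 5-fluorouracil, 3.63 ± 0.47 (n = 7) in PBS and 4.21 ± 0.98 (n = 6) with cisplatin. In males the means were 1.02 ± 1.08 (n = 8) in C26 saline, 1.80 ± 1.21 (n = 6) with paclitaxel, 2.73 ± 1.44 (n = 8) with 5-fluorouracil, 3.34 ± 0.67 (n = 8) in PBS and 3.74 ± 0.77 (n = 8) with cisplatin. The order of the means was the same in both sexes, and the ranges of neighbours in that order overlapped. The Fasn minus Adipoq difference had its lowest mean in C26 saline as well, at 1.41 ± 0.58 in females and 1.76 ± 0.54 in males, and its highest with cisplatin, at 3.64 ± 0.93 and 3.56 ± 1.21.

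Car3 levels ran from 8.36 to 11.03 over all libraries, and its pooled SD within groups was 0.45, against 1.06 for Adipoq and 1.28 for Scd1. In males it lay at 8.81, 9.40 and 9.82 in PBS, at 8.36, 8.92 and 10.42 in C26 saline and at 9.41, 9.83 and 10.39 with cisplatin. The groups overlap, and no cisplatin library lay above every saline library. Car3 rose with cisplatin by 0.73 ± 0.22, 1.66-fold (adjusted p = 0.0145), as 1 of 9 genes against 7.66% of all genes that rose and 15.9% called. The call was lost in a fit of the 2 groups alone (adjusted p = 0.115) and without C26 saline replicate 6 (adjusted p = 0.0542).

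With the other drugs Car3 stood at 0.57 ± 0.22 for 5-fluorouracil (adjusted p = 0.0514) and 0.54 ± 0.24 for paclitaxel (adjusted p = 0.0726) in males; these comparisons share the C26 saline libraries with each other and with that of cisplatin. With the tumour alone it was at -0.18 ± 0.22 in males and -0.14 ± 0.23 in females. Among 11 measured carbonic anhydrases, Car9, a hypoxia-inducible membrane enzyme, fell by 2.23 ± 0.38 in males with the tumour and rose with each drug, by 2.25 ± 0.38 for 5-fluorouracil, 1.88 ± 0.41 for paclitaxel and 2.34 ± 0.38 for cisplatin. None of 9 slow fibre genes passed in any of the 8 comparisons of tumour with PBS or drug with C26 saline, by limma (1 of 72 tests had an unadjusted p under 0.05), and of 12 fast fibre genes 6 fell with the tumour in males and 6 rose with each drug, led by Casq1, calsequestrin, with -2.08 ± 0.24 for the tumour. Of all genes in males 13% fell with the tumour, and 11.3%, 13.5% and 7.66% rose with 5-fluorouracil, paclitaxel and cisplatin. The 6 genes most like Car3 within groups were Homer2, Tm6sf1, Hmgb3, Plxna4, Rassf3 and Rcan2, with r from 0.656 to 0.719.

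Fabp4 was called in none of the comparisons between groups. Its levels ran from 6.54 to 8.19 over 73 libraries, a 3.13-fold range, against 89.1-fold for Adipoq and 204-fold for Scd1. Group medians lay between 7.30 and 7.89. With the tumour it was at 0.33 ± 0.19 in females and 0.42 ± 0.18 in males (adjusted p = 0.362 and 0.0789, limma). The part of macrophage genes in the Fabp4 values was not tested. The deviations of Fabp4 followed the GC slope of the library (r = -0.633, rho -0.470, permutation p = 1e-05, adjusted 9e-05 over 9 relations). Without the 2 libraries of farthest slope r was -0.616. Scd1 and Car3 had weaker relations with that slope (r = -0.336 and -0.288, rho -0.285 and -0.320, adjusted permutation p = 0.0431 and 0.0423). Adipoq, Plin1, Cidec, Cfd, Fasn and Acaca had none that passed (r from -0.05 to 0.23, the highest for Cfd). With the GC slope as a covariate, Scd1 in males was called for the tumour, 5-fluorouracil and cisplatin, in a fit for which the share of all genes called was not computed.

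Set against tumour-free PBS mice, none of the 9 genes was called in drug-treated tumour mice. Over 54 tests in 6 comparisons none passed by limma, 4 had an unadjusted p under 0.05, and the smallest adjusted p was 0.0523, for Cfd in paclitaxel males (1.27 ± 0.53). The shares of all genes called were 0.383% for 5-fluorouracil, 4.58% for paclitaxel and 0.209% for cisplatin in females, and 4.76%, 37.5% and 0.902% in males. Scd1 was at 0.22 ± 0.69 with cisplatin in females and at -0.21 ± 0.62 in males, and at -0.90 ± 0.66 and -1.08 ± 0.67 with paclitaxel. At equal Adipoq, Scd1 (-1.46 ± 0.50), Cidec (0.74 ± 0.24) and Cfd (0.87 ± 0.26) were called in paclitaxel males, 3 of 8 against 39.5% of all genes. The 4 tests of whether sexes differed in the tumour's or a drug's effect called none of the 9 genes; 4 of 36 had an unadjusted p under 0.05, and the smallest adjusted p was 0.183, for Acaca with cisplatin (-0.80 ± 0.23).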

How the data were processed

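RNA-seq of gastrocnemius muscle was analysed as the authors' deposited table of log2 expression values for 13856 genes. Per the submitters' processing notes, FastQC, MultiQC, fastp, Salmon, edgeR and limma were used with mm39 (GRCm39); no version or setting was found in the labels. Taking the lowest value of a library as a count of 0 plus 0.5, 85.0% to 90.7% of values fell within 0.02 of a whole count, and no count test was run. Of 75 samples in the labels, 74 had a column; 1 female library whose title and treatment label disagree was left out, and female PBS replicate 8 was not analysed here. Of 311 genes without a symbol, 288 were named from GENCODE vM21. One limma 3.58.1 model (R 4.3.3, trended variance) with 10 group means and 63 residual degrees of freedom gave 19 comparisons. Covariates were the Adipoq level, a 9-gene fat cell score, the GC slope or the mitochondrial share. Relations used 100000 permutations within groups (Python 3.11.15, scipy 1.17.1). The model was tested on simulated data. The labels number samples, not animals, so p-values cover the spread between these samples, which may be technical. Even the most similar libraries, male PBS 2 and 4, were apart by more than counting noise (chi-square averaging 13.7). Genes named besides the 9 were, for each list and comparison with PBS or C26 saline, up to 4 with the smallest adjusted p, and the 6 most like Adipoq, Scd1 and Car3; any other is said to be chosen later. The members and the lists were chosen with earlier results of these data known. Alternatives were other normalization, filters, weights, covariates and leaving out each library.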

Additional observations from a re-analysis of the deposited data

Results flagged for a closer look

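Over 90 sets of values (9 genes in 10 groups), 6 held a library far from the others of its group, in 5 genes and 4 libraries; chance gives about 1 in 20 such groups. Female paclitaxel replicate 6 was low in 3 fat cell genes, with Adipoq at 1.92 (next library 3.85), Plin1 at 2.59 (next 3.76) and Cidec at 2.30 (next 4.27). That library had a GC slope of 0.47 and 1.83% mitochondrial transcripts. Male paclitaxel replicate 6 was low in Cidec, at 0.26 (next 3.23), with a GC slope of -0.09 and 11.5% mitochondrial transcripts. Female PBS replicate 5 was low in Scd1, at 5.59 (next 7.29), and female PBS replicate 6 was high in Acaca, at 5.86 (next 4.93). Both had a GC slope of 0.22, with 3.95% and 4.49% mitochondrial transcripts. The part of these library measures was not tested for single libraries.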

How the results depend on the processing

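Among single genes, 5940 of the values under an alternative stayed on their side of the threshold, 255 of them with a change of sign in genes called in neither fit. A call was gained in 136 with the same sign and lost in 172 with the same sign. In 1 further value, Plin1 with cisplatin in males, a call was gained with a change of sign. It was at 1.16 with the Adipoq covariate and at -0.03, not called, without it. The cause was not tested for any of these. Counts of the 9 genes called are given next, comparison by comparison. The share of all genes called was computed for the reported fit and for both fat cell covariates. It was not computed under the other settings, so those counts were not set against all genes. For C26 saline minus PBS in females the count was 1, and it was 2 with quality weights, 3 with the Adipoq covariate, 2 with the fat cell score, 2 without high GC slope libraries and 0 to 1 with a library left out. In males it was 1, and 3 in a fit of these groups only, 4 with Adipoq, 4 with the score, 2 with the mitochondrial share, 2 with the GC slope, 2 without high GC slope libraries and 0 to 1 with a library left out. For 5-fluorouracil minus C26 saline in females it was 0, and 3 with weights, 1 with Adipoq, 1 with the GC slope, 2 without high GC slope libraries and 0 to 1 with a library left out. In males it was 0, and 1 with genes of mean log2 value of at least 1, 2 with weights, 2 with Adipoq, 3 with the score, 1 with the mitochondrial share, 2 with the GC slope, 4 without high GC slope libraries and 0 to 1 with a library left out. For paclitaxel minus C26 saline in males it was 0, and 1 with Adipoq, 1 with the mitochondrial share and 0 to 1 with a library left out. For cisplatin minus C26 saline in females it was 2, and 4 with Adipoq, 3 with the score and 0 to 2 with a library left out. In males it was 1, and 0 in a fit of these groups only, 4 with weights, 4 with Adipoq, 5 with the score, 3 with the GC slope, 4 without high GC slope libraries and 0 to 3 with a library left out. The sex difference in the cisplatin effect and cisplatin minus PBS in females went from 0 to 1 with weights, and 5-fluorouracil minus PBS in males from 0 to 1 with the score. Paclitaxel minus PBS in males went from 0 to 1 with the filter, to 1 with 1 added before the log, to 3 with Adipoq, to 3 with the score and to 0 to 2 with a library left out. Males minus females in PBS went from 6 to 2 with Adipoq, to 1 with the score, to 2 without high GC slope libraries and to 2 to 8 with a library left out. The labels give same-numbered samples nothing in common but a number, and what it marks was not tested. Deviations of same-numbered samples had a median r from 0.01 to 0.24 over the 8 comparisons, each with at least 1 pair under 0.1. The median was 0.24 for 5-fluorouracil and for paclitaxel minus C26 saline in females, with 5 of 7 pairs over 0.1 in each. With the replicate block the count was 1 for 5-fluorouracil minus C26 saline in males, 1 for paclitaxel minus PBS in males, and 1 and 1 for the tumour in females and males.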
